A study of Schizosaccharomyces pombe with 6 samples.

Results

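The 5 hsp31 genes of fission yeast, *Schizosaccharomyces pombe*, were followed on all 6 tiling arrays of a study of the TRAMP complex. They were taken by name as hsp3101 (SPCC757.03c), hsp3102 (SPAC5H10.02c), hsp3103 (SPBC947.09), hsp3104 (SPAC11D3.13) and hsp3105 (SPAC1F7.06), and all 5 had a value among the 5483 annotated features of each array. The arrays covered 3 strains with 2 biological replicates each: the wild-type parent SPB76 (wt), a cid14delta strain (SPB101) and an air1delta strain (SPB103). Per the labels' protocols all cultures grew in YES, a rich medium, at 30 °C and were collected at an optical density of 0.5. Each mutant is 1 strain, so its values describe that isolate. Every value is the authors' log2 array value per annotated feature.

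DJ-1 family proteins are small, mostly single-domain proteins named after human DJ-1 (PARK7), which is mutated in an inherited form of Parkinson's disease. The Hsp31 branch is known from *Escherichia coli* and *Saccharomyces cerevisiae*, where Hsp31 acts as a chaperone and as a glyoxalase that removes methylglyoxal, a reactive by-product of glycolysis, without glutathione. In *S. cerevisiae* the HSP31-like genes are induced as cells leave exponential growth and under oxidative stress. Fission yeast has several paralogs of this branch and, separately, sdj1, its closer relative of human DJ-1. TRAMP adds short poly(A) tails to nuclear RNAs and so hands them to the exosome for decay, and it also takes part in heterochromatin silencing; Cid14 is its polymerase subunit and Air1 its RNA-binding zinc-knuckle subunit.

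The deleted genes matched the labels. The log2 values of cid14 were 8.92 and 8.84 in wt and 3.91 and 3.63 in cid14delta, and those of air1 were 10.49 and 10.40 in wt and 4.42 and 4.90 in air1delta. Array medians lay between 9.21 and 9.29. Every value of the 5 hsp31 genes lay above 4.90, the highest value of a deleted gene in its own deletion strain. The lowest hsp31 value was 5.65.

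The family's places in the genome were read from the gene order of a reference annotation (ASM294v3). The gene hsp3101 is the protein-coding gene at place 7 from the left end of chromosome III. On chromosome I, hsp3104 and hsp3102 stand at places 48 and 55 from the left end with 6 protein-coding genes between them. The genes hsp3103 on chromosome II and hsp3105 on chromosome I stand at places 247 and 558 from the nearer end, well inside their chromosomes. The subtelomeric description therefore applied to at most hsp3101, hsp3102 and hsp3104. In that annotation 2 noncoding RNA genes overlap each of hsp3101, hsp3102, hsp3104 and hsp3105 and 1 overlaps hsp3103, and hsp3102 and hsp3104 each also overlap 1 protein-coding gene. The target hybridised to the arrays was double-stranded, so transcripts of overlapping genes could not be told apart in the stretch they share. How long those stretches are was not examined. Whether probes of one hsp31 gene also match another was not tested.

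The members were chosen by name, but the family was selected on its log2 differences from wt on these same arrays, so its differences between strains are described here without p-values. Differences between strain means are given on the log2 scale with the standard error of limma's linear model and n = 2 arrays per strain. A feature is called when its limma p, adjusted over all features by the Benjamini-Hochberg method, lies under 0.05. For the hsp31 genes a call, or its persistence under another setting, is a description and not a test. Whether replicates came from separate colonies is not stated in the labels. The p-values weigh a difference against the spread between these replicate cultures alone, pooled over the strains and moderated over all features.

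All 5 hsp31 genes were higher in air1delta than in wt by similar amounts, 1.53- to 1.67-fold. In cid14delta 2 of them, hsp3101 and hsp3104, were 2.24- and 1.86-fold higher, and the other 3 overlapped with wt. The 5 genes thus split into a pair that was higher in both mutants and a trio whose values left the wild-type range in air1delta. Of all features, 62.7% had cid14delta arrays and 69% had air1delta arrays that did not overlap with wt. The split is a description, and none of the 5 was called between the mutants.

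**Figure D1:**
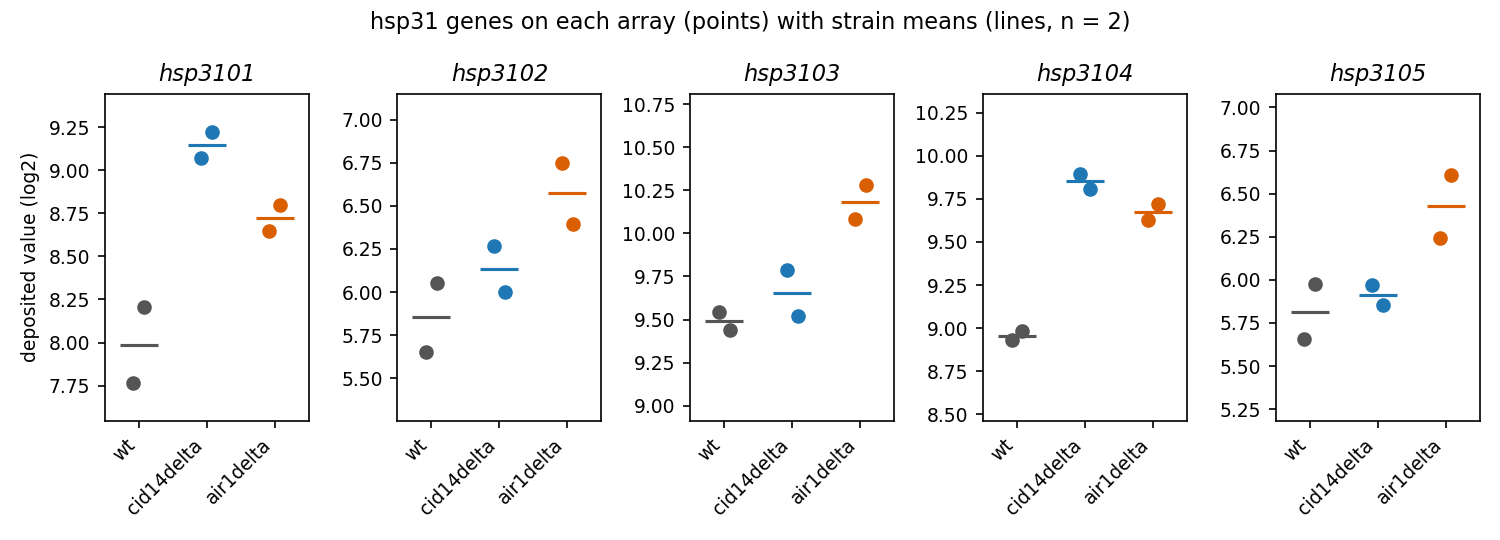
Deposited log2 value of each hsp31 gene on each array (points) with the strain mean (line, n = 2) in wt, cid14delta and air1delta. Each panel spans the same log2 range but starts at its own level. For hsp3101 and hsp3104 both mutants lie above wt, with cid14delta highest, and for hsp3102, hsp3103 and hsp3105 the cid14delta points overlap those of wt while both air1delta points lie higher.

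The gene hsp3101 showed the largest difference of the family. Its log2 values were 7.77 and 8.21 on the wt arrays, 9.07 and 9.22 on those of cid14delta and 8.65 and 8.80 on those of air1delta. All mutant arrays lay above both wt arrays, and cid14delta lay above air1delta. The 2 wt arrays were 0.44 apart, the widest spread of any strain and any member of the family, and the nearest arrays of wt and cid14delta were still 0.87 apart. The mean was higher than in wt by 1.16 ± 0.16 in cid14delta, which ranked 39 of 5483 features by absolute change, and by 0.74 ± 0.16 in air1delta, which ranked 216.

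The gene hsp3104 had the tightest replicates. Its values were 8.93 and 8.98 for wt, 9.89 and 9.81 for cid14delta and 9.63 and 9.72 for air1delta. The order of the strains was the same as for hsp3101, with wt lowest, air1delta between and cid14delta highest, and no 2 strains overlapped. The nearest arrays of air1delta and cid14delta were 0.09 apart, about the distance between replicates of cid14delta (0.08) and of air1delta (0.09). The mean was 0.90 ± 0.07 higher than in wt in cid14delta (rank 79) and 0.72 ± 0.07 higher in air1delta (rank 240).

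The gene hsp3103, one of the 2 far from a chromosome end, had values of 9.54 and 9.44 for wt, 9.79 and 9.52 for cid14delta and 10.08 and 10.28 for air1delta. The first wt array lay just above the second cid14delta array, and both air1delta arrays lay above the other 4. The difference from wt was 0.16 ± 0.12 in cid14delta, with a 95% interval of the difference from -0.14 to 0.46, and 0.69 ± 0.12 in air1delta (rank 278).

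The genes hsp3102 and hsp3105 had the widest spread between the air1delta replicates, 0.35 and 0.36. For hsp3102 they were 5.65 and 6.05 for wt, 6.27 and 6.002 for cid14delta and 6.75 and 6.40 for air1delta. For hsp3105 they were 5.65 and 5.97 for wt, 5.97 and 5.85 for cid14delta and 6.24 and 6.61 for air1delta. In both genes wt and cid14delta overlapped and air1delta lay above them, by 0.13 log2 units between the nearest air1delta and cid14delta arrays for hsp3102 and by 0.27 for hsp3105. In cid14delta the differences from wt were 0.28 ± 0.19 for hsp3102 (95% interval -0.19 to 0.75) and 0.10 ± 0.16 for hsp3105 (-0.30 to 0.50). In air1delta they were 0.72 ± 0.19 and 0.61 ± 0.16. With 2 arrays per strain, a difference in cid14delta of up to about the upper bound of its interval is not excluded for either gene.

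In the comparison of cid14delta with wt, 2 of the 5 genes were called and both were higher, where 4.78% of all features were called higher and 8.66% were called in either direction. Both also had arrays that did not overlap with wt, as did 35.0% of all features on the higher side. The family's median difference was 0.28, against 0.03 over all features. Nothing is read from these shares, since the family was listed with the results in view. Same-numbered wt and cid14delta arrays carry a common date in the labels, which do not say what it dates. With the replicate number as a block in 6 arrays hsp3101 and hsp3104 were both still called, while the features called in all fell from 475 to 179. With the replicate block in the 4 arrays of these strains none of the family was called, and of all features 1 was. Leaving out 1 cid14delta array, whichever it was, gave 0 calls in the family, again with 1 feature called in all. Leaving out 1 air1delta array, which enters this comparison through the shared spread alone, left hsp3104 as the family's 1 call.

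In the comparison of air1delta with wt, all 5 genes were called and higher, where 16.4% of all features were called higher and 26.2% in either direction. The arrays of all 5 lay above both wt arrays, as did those of 39.3% of all features. The family's median difference was 0.72, and its 5 values spanned 0.61 to 0.74, against a median of 0.03 over all features. Per the labels' array names, air1delta was hybridised in a separate array series from wt and cid14delta, and each air1delta array carries a date that no other array shares. In this comparison series and date cannot be told apart from strain. The count of 5 rested on several adjusted p-values near the threshold: it was 3 after median centring and 3 after quantile normalization, 4 with the replicate block in 6 arrays, 2 with it in 4 arrays, and 1 to 3 when any single array was left out. The call of hsp3104 held under all 14 alternatives, that of hsp3103 under 10, hsp3101 under 8, hsp3105 under 4 and hsp3102 under 2. The differences themselves stayed positive under every one of the 14, between 0.39 and 0.96. A call that held gives no support to a difference here, since the family was selected on these same values. Some of the 14 repeat the same fit, as described under the processing.

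Between the mutants, hsp3101 and hsp3104 were lower in air1delta than in cid14delta, by -0.42 ± 0.16 (95% interval -0.82 to -0.03) and -0.18 ± 0.07 (-0.35 to -0.01). The other 3 were higher in air1delta, hsp3102 by 0.44 ± 0.19 (-0.03 to 0.91), hsp3103 by 0.53 ± 0.12 (0.23 to 0.83) and hsp3105 by 0.51 ± 0.16 (0.11 to 0.91). None of the 5 was called by limma in this comparison, where 10% of all features were called. At an unadjusted p under 0.05 the count was 4 of 5, against 31.9% of all features. The arrays of the mutants did not overlap for any of the 5, nor for 65.2% of all features. As in the other comparisons, nothing is read from these shares. The array series and the dates separate these strains as well, and both comparisons with wt share the same 2 wt arrays.

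**Figure D2:**
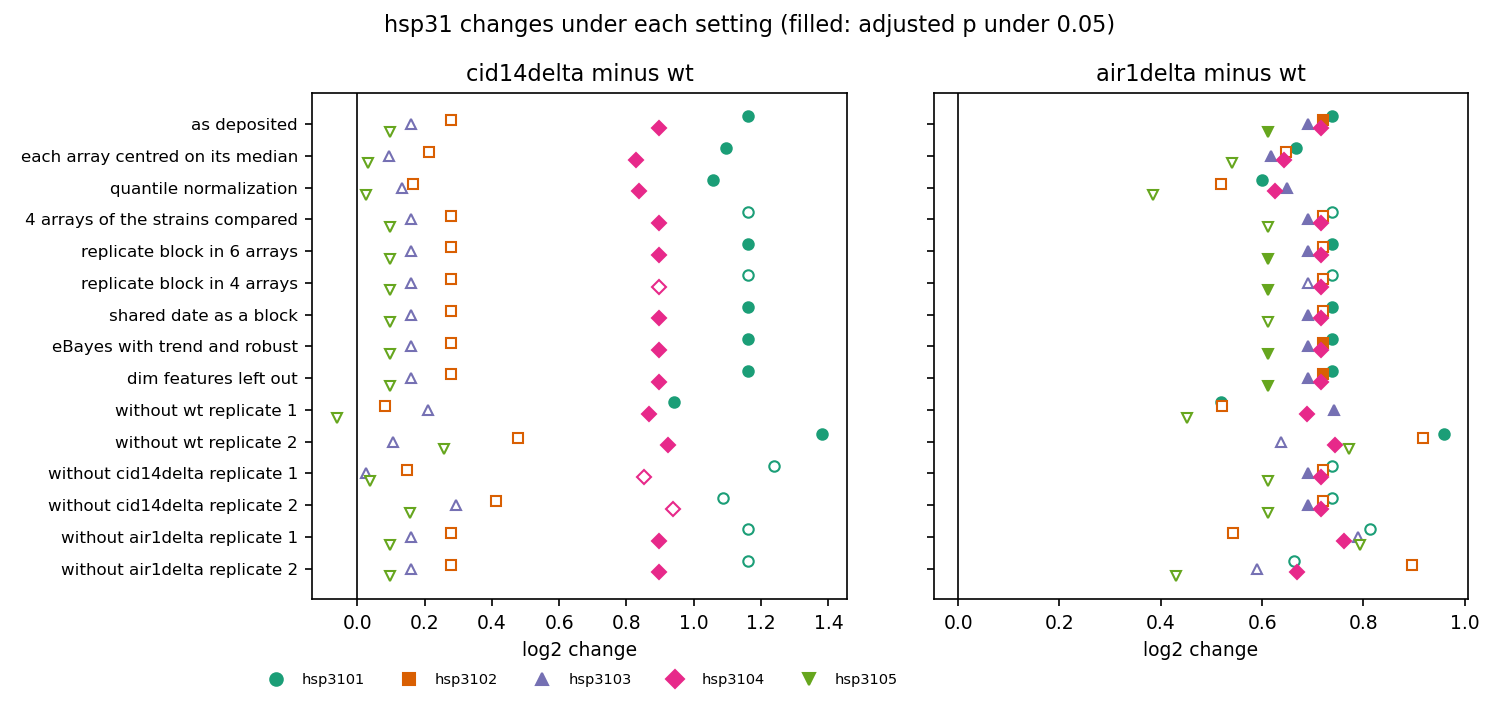
Log2 change of each hsp31 gene against wt in cid14delta (left) and air1delta (right) as deposited and under 14 alternative settings. Filled symbols were called at an adjusted p under 0.05. In cid14delta the symbols of hsp3101 and hsp3104 stay above 0.82 in every row, apart from the other 3, and in air1delta all 5 lie together between 0.39 and 0.96.

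Likeness within the family was measured as the Euclidean distance between the 6 array values of 2 genes, each set relative to its own wt mean. The nearest pair was hsp3103 and hsp3105 at 0.37, the next was hsp3101 and hsp3104 at 0.50, and the farthest was hsp3101 and hsp3105 at 1.54. The neighbours hsp3102 and hsp3104 on chromosome I were 0.97 apart. These distances describe 6 arrays and carry no test.

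By the same distance, the features most like each member were looked up among all others. For hsp3101 they were gon7 (distance 0.39), whose product belongs to the KEOPS complex of tRNA modification, SPBC215.11c (0.41) and hpz2 (0.42), and hpz2 had a wt mean of 4.05, below the level of 4.90 of a deleted gene. For hsp3104 they were SPBC1271.10c (0.24), cyt2 (0.28), which encodes a heme lyase of mitochondrial cytochrome assembly, and wdr83 (0.31). For hsp3103 they were saf2 (0.16), the prefoldin subunit gene pfd2 (0.16) and the noncoding RNA SPNCRNA.100 (0.22). For hsp3102 they were the noncoding RNAs SPNCRNA.293 (0.12) and lncRNA584 (0.20) and snu13 (0.25), which encodes a small ribonucleoprotein component. SPNCRNA.293, at the shortest distance of the 15, had a wt mean of 4.62, also below the level of a deleted gene. For hsp3105 they were the meiotic kinase gene mek1 (0.19), gmh1 (0.20) and sws1 (0.25). These features were picked for their likeness on the same 6 arrays, so their differences from wt follow from that choice and carry no test.

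The other DJ-1 gene on the lists, sdj1, was not called in either mutant. Its values were 10.75 and 10.71 for wt, 10.56 and 10.57 for cid14delta and 10.85 and 10.67 for air1delta. Both cid14delta arrays lay just below wt and the air1delta arrays lay on either side of it. The differences from wt were -0.16 ± 0.08 (adjusted p = 0.23) and 0.03 ± 0.08 (adjusted p = 0.796).

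The glutathione-dependent route of methylglyoxal removal gave no call either. The glyoxalase I gene glo1 had 0.09 ± 0.07 in cid14delta (adjusted p = 0.48) and 0.25 ± 0.07 in air1delta (adjusted p = 0.0577). The glyoxalase II gene glo2 had 0.45 ± 0.12 in cid14delta (adjusted p = 0.0834) and 0.18 ± 0.12 in air1delta (adjusted p = 0.322). The gene glo3, listed by its symbol, fell in air1delta by 0.38 ± 0.06 (adjusted p = 0.0149) and had -0.09 ± 0.06 in cid14delta (adjusted p = 0.365). In *S. cerevisiae* the name GLO3 belongs to an activator of the small GTPase Arf, not to a glyoxalase. Of the 4 genes of this list, 0 rose in either mutant, 0 fell in cid14delta and 1 fell in air1delta, and the list's medians were -0.0027 and 0.10, against 0.03 over all features in each. The 1 call in air1delta is 25% of the list, against 26.2% of all features. At an unadjusted p under 0.05 limma gave 1 of the 4 in cid14delta and 2 in air1delta, against 29.9% and 41.2% of all features.

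**Figure D3:**
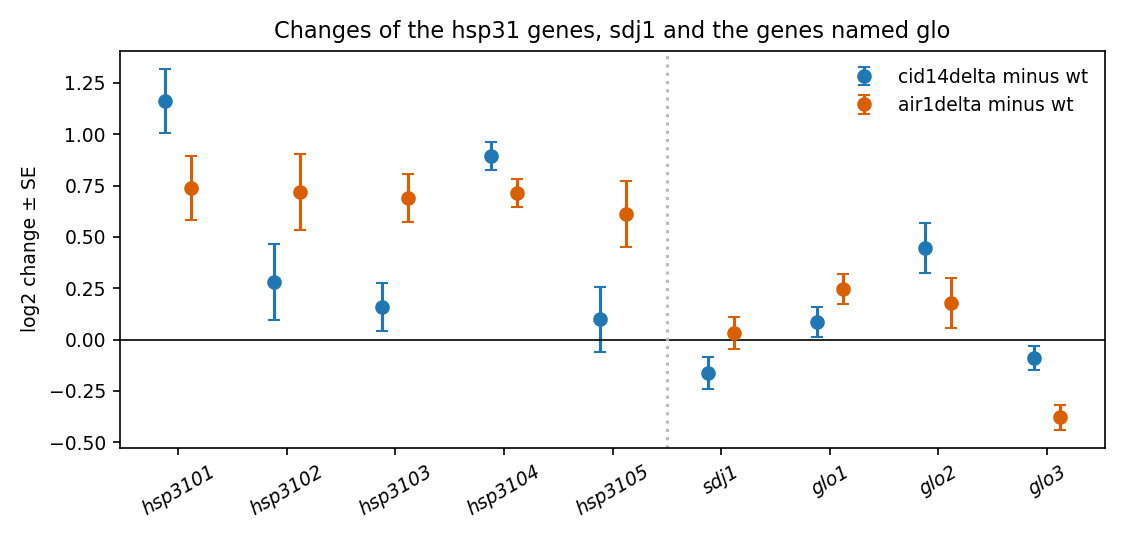
Log2 change against wt ± SE (n = 2 arrays per strain) of the 5 hsp31 genes, left of the dotted line, and of sdj1, glo1, glo2 and glo3, right of it, in cid14delta and air1delta. In air1delta the hsp31 genes lie between 0.61 and 0.74, and the other 4 lie between -0.38 and 0.25.

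Other stress genes were compared as lists. Of 22 oxidative stress genes, 2 rose in cid14delta, 0 fell and 20 did not pass, a share of 9.09% against 8.66% of all features, and the list's median was 0.10 against 0.03. The glutathione S-transferase gene gst2 rose by 0.80 ± 0.14 (adjusted p = 0.0344) and sod2, which encodes the mitochondrial superoxide dismutase, rose by 0.51 ± 0.06 (adjusted p = 0.0228). In air1delta 6 of the 22 rose, 0 fell and 16 did not pass, 27.3% against 26.2% of all features, with a median of 0.16. Among them were gst2 (0.82 ± 0.14), the efflux transporter gene caf5 (0.66 ± 0.13) and the peroxiredoxin gene pmp20 (0.57 ± 0.11). The call of gst2 in cid14delta was lost with the replicate block in 6 arrays (adjusted p = 0.0561). At an unadjusted p under 0.05 limma gave 6 of the 22 in cid14delta, against 29.9% of all features, and 15 in air1delta, against 41.2%.

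Of 20 measured heat shock and chaperone genes, 1 rose in cid14delta, the small heat shock protein gene hsp16 (1.37 ± 0.23, adjusted p = 0.0317), 0 fell and 19 did not pass, a share of 5% against 8.66% of all features. With the replicate block in 6 arrays hsp16 did not pass in cid14delta (adjusted p = 0.06) or in air1delta (adjusted p = 0.0507). In air1delta 5 rose, 2 fell and 13 did not pass, 35% against 26.2% of all features. The largest of the rises were those of hsp16 (1.02 ± 0.23), the Hsp70 gene ssa1 (0.81 ± 0.22) and hsp78 (0.54 ± 0.12), which encodes a mitochondrial disaggregase. The falls were those of rot1 (-0.44 ± 0.08) and the Hsp90 cochaperone gene aha1 (-0.42 ± 0.09). The list's medians were 0.0046 in cid14delta and 0.06 in air1delta. Its counts at an unadjusted p under 0.05 were 6 and 9 of the 20, against 29.9% and 41.2% of all features. Of 15 genes of the Atf1 stress response, 0 rose and 1 fell in cid14delta, the protease gene isp6 (-0.45 ± 0.08), and 14 did not pass, a share of 6.67% against 8.66% of all features. The call of isp6 was lost with the replicate block in 6 arrays (adjusted p = 0.06) and with the shared date as a block (adjusted p = 0.0591). In air1delta 2 rose, the phosphatase gene pyp2 (0.54 ± 0.09) and ish1 (0.46 ± 0.10), 0 fell and 13 did not pass, 13.3% against 26.2% of all features. The medians were 0.03 and 0.14. In cid14delta 12 of the 15 differences were positive and 3 negative, the highest being 1.24 in a gene not called. In air1delta 9 were positive and 6 negative. The counts at an unadjusted p under 0.05 were 4 and 5 of the 15, against 29.9% and 41.2% of all features.

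Markers of mating type were read as the other kind of cell that a culture could hold. The mean log2 value of 6 M-cell markers was 6.67 and 7.02 for wt, 6.65 and 6.79 for cid14delta and 6.74 and 6.93 for air1delta. That of 3 P-cell markers was 8.29 and 8.39 in wt, 8.26 and 8.18 in cid14delta, and 8.199 on both air1delta arrays. Among M-cell markers the receptor gene mam2 rose in cid14delta (0.65 ± 0.07) and in air1delta (0.34 ± 0.07), mfm2 fell in cid14delta to 4.64, below the level of a deleted gene, 4 did not pass in cid14delta and 5 in air1delta. Among P-cell markers 0 of 3 passed limma's test in cid14delta. The count at an unadjusted p under 0.05 was 1, against 29.9% of all features. In air1delta map4 fell (-0.38 ± 0.10), a call lost with the replicate block in 6 arrays (adjusted p = 0.0695). The part of these markers in the hsp31 differences was not tested.

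Genes next to the family, which the choice of members did not use, were tested. SPAC11D3.14c, dgc1 and SPNCRNA.243 each overlap a member, so part of their signal may be that member's. They are not fully separate from the choice, and how much signal is shared was not tested. Of the 5 annotated genes on each side of each hsp31 gene 23 had a value. In cid14delta 4 of the 23 were called, 2 higher and 2 lower (17.4% against 8.66% of all features). In air1delta 6 were called, 3 higher and 3 lower (26.1% against 26.2%). The overlapping features are kept in all these counts. SPAC11D3.14c is among the 3 higher in air1delta, and dgc1 and SPNCRNA.243 were called in neither mutant. With the replicate block in 6 arrays these counts were 3 and 6. Because many annotated neighbours are noncoding RNAs without a value, the 5 nearest measured features on each side were read as well, an alternative chosen after seeing the data. They numbered 47, with 4 higher and 5 lower in cid14delta (19.1% against 8.66% of all features) and 4 higher and 6 lower in air1delta (21.3% against 26.2%).

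Around hsp3101, 0 of its 10 nearest measured features passed limma's test in either mutant. At an unadjusted p under 0.05 the counts around hsp3101 were 1 in cid14delta and 0 in air1delta, against 29.9% and 41.2% of all features. The nearest protein-coding gene to its left, SPCC757.02c, had 0.36 ± 0.17 in cid14delta (adjusted p = 0.234) and 0.43 ± 0.17 in air1delta (adjusted p = 0.122). Among the 10 features around hsp3101, meu3, SPNCRNA.450, SPNCRNA.451 and SPNCRNA.452 had wt means of 4.85, 4.01, 4.04 and 3.92. These lay below the level of a deleted gene (4.90), so the absence of a call for them says little. Each of the other hsp31 genes had at least 1 called feature among its 10 in cid14delta or air1delta. Of all features 8.66% and 26.2% were called. For hsp3105 the only one was dal2, at -0.49 ± 0.07 in cid14delta (adjusted p = 0.029). That call was lost with the replicate block in 6 arrays (adjusted p = 0.0561).

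On chromosome I the genes around hsp3104 and hsp3102 moved in both directions. To the left of hsp3104, SPAC11D3.10 rose in cid14delta (0.59 ± 0.08, adjusted p = 0.0232) and in air1delta (0.41 ± 0.08, adjusted p = 0.0207), and SPAC11D3.11c had 0.31 ± 0.06 in cid14delta (adjusted p = 0.0416). The call of SPAC11D3.11c was lost with the replicate block in 6 arrays (adjusted p = 0.0745), after median centring (adjusted p = 0.0607) and after quantile normalization (adjusted p = 0.0543). To its right, SPAC11D3.14c, which overlaps hsp3104 in the annotation, rose in air1delta (0.56 ± 0.09, adjusted p = 0.0149) and had 0.38 ± 0.09 in cid14delta (adjusted p = 0.0577). The next gene, SPAC11D3.15, had 0.56 ± 0.23 in cid14delta (adjusted p = 0.171) and 0.50 ± 0.23 in air1delta (adjusted p = 0.155). Its mutant arrays all lay above wt, and it passed the test in neither mutant. The 3 genes after it, SPAC11D3.16c, SPAC11D3.17 and SPAC11D3.18c, were lower than wt in both mutants. SPAC11D3.17 had values of 8.51 and 8.73 for wt, 7.70 and 7.69 for cid14delta and 8.12 and 8.18 for air1delta. It fell by 0.93 ± 0.09 in cid14delta (adjusted p = 0.0141) and by 0.47 ± 0.09 in air1delta (adjusted p = 0.0208).

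SPAC11D3.18c had values of 8.71 and 9.15 for wt, 7.53 and 7.64 for cid14delta and 7.80 and 7.90 for air1delta. It fell by 1.35 ± 0.15 in cid14delta (adjusted p = 0.0184) and by 1.08 ± 0.15 in air1delta (adjusted p = 0.0116). Both genes lie between hsp3104 and hsp3102. SPAC11D3.16c, SPAC5H10.04, adh4 and dal2 stood outside the naming rule and were chosen after their values were seen. So were the neighbours given here that were not called in either mutant. SPAC11D3.16c fell in both mutants (-0.49 ± 0.10 and -0.91 ± 0.10), and its call in cid14delta was lost with the replicate block in 6 arrays (adjusted p = 0.0572). On the other side of hsp3102, SPAC5H10.04 rose by 1.23 ± 0.09 in cid14delta (adjusted p = 0.011) and by 1.32 ± 0.09 in air1delta (adjusted p = 0.0049). The alcohol dehydrogenase gene adh4 beside it fell (-0.62 ± 0.06 and -0.27 ± 0.06), the latter a call lost with that block (adjusted p = 0.0533). The gene dgc1, which overlaps hsp3102, had -0.13 ± 0.08 (adjusted p = 0.342) and 0.11 ± 0.08 (adjusted p = 0.36).

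Beside hsp3103, dsc1, which encodes a subunit of the Golgi ubiquitin ligase that activates the sterol regulator Sre1, fell in air1delta by 0.58 ± 0.07 (adjusted p = 0.0095). On the other side rrp1402 rose in air1delta by 1.09 ± 0.19 (adjusted p = 0.0178) and had 0.77 ± 0.19 in cid14delta (adjusted p = 0.066). The gene between hsp3103 and rrp1402, hip4, had -0.07 ± 0.08 in air1delta (adjusted p = 0.55). Beside hsp3105, the overlapping noncoding RNA SPNCRNA.243 had -0.04 ± 0.06 in cid14delta (adjusted p = 0.716) and 0.20 ± 0.06 in air1delta (adjusted p = 0.0773). Its wt mean of 3.96 lay below the level of a deleted gene. The iron permease gene fip1 and the ferroxidase gene fio1, which follow it, had differences of -1.22 ± 0.38 and -1.50 ± 0.54 in cid14delta and of -1.13 ± 0.38 and -0.94 ± 0.54 in air1delta, and did not pass the test in either mutant.

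**Figure D4:**
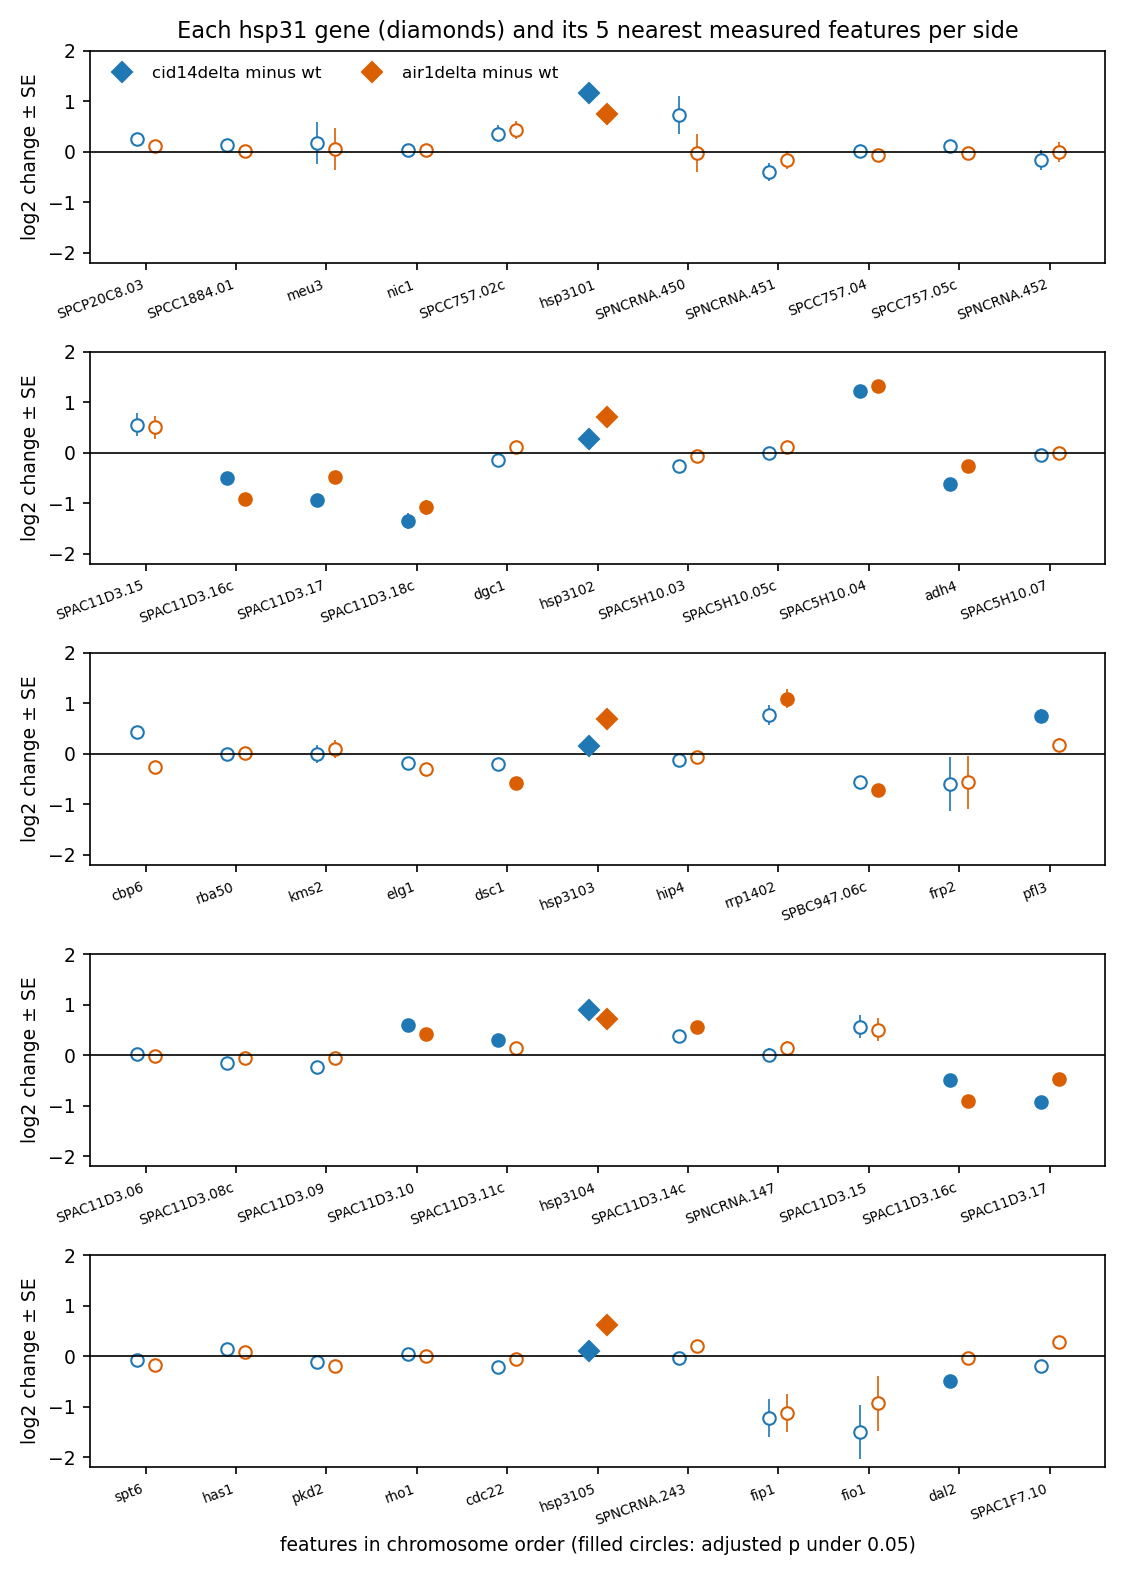
Log2 change against wt ± SE of each hsp31 gene (diamonds, at the middle of each row, drawn filled without regard to a test) and of its 5 nearest measured features on each side in chromosome order (circles, filled where the adjusted p was under 0.05). The panels of hsp3102 and hsp3104 share 3 features. Around hsp3101 all circles are open, and between hsp3104 and hsp3102 the circles of SPAC11D3.16c, SPAC11D3.17 and SPAC11D3.18c lie below 0 in both mutants. Around hsp3101, meu3, SPNCRNA.450, SPNCRNA.451 and SPNCRNA.452 had wt means below the level of a deleted gene.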

How the data were processed

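The authors deposited log2 values for 5483 annotated features on 6 Affymetrix tiling arrays, a scale read from the size of the values. The affy package is named in the submitters' processing notes; the sources used here do not give background correction, normalization or build. All columns were used. The number of arrays limits the precision. Systematic IDs were matched to a RefSeq gene table (ASM294v3) used for names and gene order; 5337 matched. A linear model with strain as factor was fitted to all 6 arrays in R 4.3.3 with limma 3.58.1 (3 residual and 2.51 prior degrees of freedom), two-sided, Benjamini-Hochberg adjustment over all features; the code was tested on simulated data. The members and the 6 gene lists (71 symbols, 1 not matched) were chosen with earlier results of these data known.

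Same-numbered wt and cid14delta arrays carry 1 date in the labels, which pairs them; the air1delta arrays carry other dates. Over all features, the deviations from the strain mean of equally numbered arrays had r = -0.0063 for wt and cid14delta, 0.0413 for wt and air1delta and 0.0159 for the mutants. The 14 alternatives were median centring, quantile normalization, fits of 4 arrays, replicate or shared-date blocks, a trended robust variance, a filter on dim features (mean at or below 4.90) and leaving out each array. They are not 14 distinct fits. In each comparison, leaving out either array of the strain not compared gave the same result as the fit of 4 arrays without a block. The naming rule took the 5 hsp31 genes, the deleted genes, sdj1, called annotated neighbours (at most 6 per mutant), up to 3 called members per list, mutant and direction, and the 3 features most like each hsp31 gene whose strain means span at least 0.5. Sequences of the hsp31 genes were not used here.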

Additional observations from a re-analysis of the deposited data

Results flagged for a closer look

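No hsp31 gene had its mutant arrays on opposite sides of wt. Among the other genes named, leaving out those picked for likeness to an hsp31 gene, 7 differed between the mutants by limma's direct comparison of air1delta with cid14delta (adjusted p from 0.0219 to 0.0479). All 7 calls were lost with the replicate block in 6 arrays (adjusted p from 0.0518 to 0.0816) and with the date block (from 0.0551 to 0.0766), while the features called in all fell from 549 to 72 and 68. Of the neighbours of the family, SPAC11D3.17 was higher in air1delta by 0.46 ± 0.09 and dsc1 was lower, at -0.38 ± 0.07. Of the listed genes, isp6 was higher by 0.63 ± 0.08 and mfm2 by 1.001 ± 0.14, where its cid14delta level lay below that of a deleted gene. The genes mam2 (-0.31 ± 0.07), glo3 (-0.29 ± 0.06) and rot1 (-0.40 ± 0.08) were lower. The array series and the dates in the labels cannot be told apart from the strain in these differences.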

How the results depend on the processing

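Of 15 differences of hsp31 genes under 14 alternatives each (210 values), 166 kept their direction and their side of the threshold, 41 kept their direction and lost the call, 2 gained it and 1 changed sign: hsp3105 in cid14delta, at -0.061 without wt replicate 1 and 0.258 without wt replicate 2. Of 658 values for other named genes and neighbours, 399 kept their direction and their side of the threshold, 257 lost the call, 0 gained it and 2 changed sign. Quantile normalization ended the air1delta calls of SPAC11D3.10 (adjusted p = 0.0664), pyp2 (0.057), ish1 (0.0752), ssa1 (0.0509) and mam2 (0.182), and the date block those of ish1 (0.0518) and ssa1 (0.0746). Alternatives that repeat the same fit were counted each time in all these tallies. Of 418 values for features named for likeness, 2 changed sign. These 4, all uncalled, were sdj1 in air1delta after median centring (-0.0414) and without air1delta replicate 1 (-0.0621, against 0.123 without replicate 2), and sws1 in cid14delta after median centring (-0.0125) and quantile normalization (-0.0726).

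The hsp31 genes called in cid14delta numbered 2 as deposited, 1 in 4 arrays, 0 with the replicate block in 4 arrays and 0 to 2 when single arrays were left out. In air1delta they numbered 5, against 3 after median centring, 3 after quantile normalization, 2 in 4 arrays, 2 with the replicate block in 4 arrays, 3 with the date block and 1 to 3 without single arrays. Between the mutants they numbered 0, 1 with dim features left out, 1 with a trended robust variance (hsp3103 in both) and 0 to 0 without single arrays.

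Neighbours called in cid14delta numbered 4, against 2 in 4 arrays, 0 with the replicate block in 4 arrays, 9 among measured features and 0 to 6 without single arrays. In air1delta they numbered 6, against 3 with the replicate block in 4 arrays, 10 among measured features and 1 to 8 without single arrays. Between the mutants they numbered 2, against 0 with the replicate block in 6 or in 4 arrays, 0 with the date block, 6 among measured features and 0 to 2 without single arrays.

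All features called in cid14delta numbered 475, against 69 in 4 arrays, 179 with the replicate block in 6 arrays, 1 with it in 4 arrays, 180 with the date block and 1 to 338 without single arrays. In air1delta they numbered 1434, against 870 in 4 arrays, 208 with the replicate block in 4 arrays and 273 to 952 without single arrays. Between the mutants they numbered 549, against 72 and 100 with the replicate block in 6 and in 4 arrays, 68 with the date block and 2 to 488 without single arrays. Median centring moved the share of calls that were higher from 55.2% to 34.9% in cid14delta and from 62.8% to 43.7% in air1delta, and quantile normalization moved the latter to 48.2%. Median centring lowers all differences from wt in a comparison equally, since wt array medians were 9.21 and those of the mutants 9.27 to 9.29. The median difference over all features went from 0.03 to -0.04 in each mutant. Why the wt medians lay lower was not tested. The cause of the other changes was not tested, beyond the fewer arrays in some fits and the residual degree of freedom that each block takes.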
